A study of Mus musculus with 6 samples.

Results

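Foxa1, Fkbp5, Tmprss2, Pmepa1 and the 4 STEAP genes Steap1, Steap2, Steap3 and Steap4 were followed in RM-1 cells that carried a Bhlhe22 lentivirus or a blank vector lentivirus. They were taken by gene name from a deposited expression table, and all 8 were found among its 55487 genes. RM-1 is a mouse prostate cancer line made from prostate cells transformed with ras and myc, and both groups are this one line. RNA was sequenced from 3 libraries of cells with the Bhlhe22 overexpression virus (called Bhlhe22 cells) and 3 libraries of control cells with the blank virus (called vector cells). The labels name no drug, hormone or time point. Nor do they tie replicates to cultures of their own, so p-values measure a spread between libraries that may be technical.

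Steroid hormone receptors are transcription factors that HSP90 and immunophilin chaperones hold ready for their hormone. In human prostate, androgen signalling works with the pioneer factor FOXA1 and switches on FKBP5, TMPRSS2 and PMEPA1. STEAP proteins are multi-pass membrane proteins that carry a heme. STEAP2, STEAP3 and STEAP4 take electrons from NADPH to reduce ferric iron and cupric copper, whereas STEAP1 lacks the NADPH-binding part. In humans STEAP1 and STEAP2 are abundant in prostate, and in mice STEAP3 is the ferric reductase of transferrin endosomes in red cell precursors.

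Bhlhe22, a basic helix-loop-helix factor of neuronal development, had 8706, 14785 and 17995 counts in Bhlhe22 replicates 1, 2 and 3, against 0 counts in each vector library. Library totals ran from 15464709 to 25129552 counts in Bhlhe22 cells and from 17950347 to 21223227 in vector cells. Levels are given as CPM, a gene's counts relative to the TMM-scaled size of its library. A count of 0 allows up to 3 counts, which was 0.119 to 0.197 CPM per library; this floor covers counting error only. Bhlhe22 replicate 1 stood apart in its effect on the test: without it 4682 genes were called, against 2881 with all 6 libraries and 1348 to 2227 without any other single library.

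The prostate names were checked against luminal markers first. Hoxb13, a luminal transcription factor gene, had 0 counts in all 6 libraries, as did the androgen-induced secretory gene Pbsn. Spdef had at most 3 counts in a library, and Slc45a3 averaged 0.9 CPM in Bhlhe22 cells and 1.1 CPM in vector cells. The luminal keratins were present. Krt8 averaged 545 ± 34.0 CPM in Bhlhe22 cells and 757 ± 14.5 CPM in vector cells (SD, n = 3 each, as for all means below), and fell by 0.47 on the log2 scale (edgeR adjusted p = 0.0047). Krt18 averaged 665 ± 80.1 CPM in Bhlhe22 cells and 665 ± 24.0 CPM in vector cells. Hoxb13, Pbsn and Spdef were thus at or near 0, and the 8 genes are treated as a list of names, not as a hormone response.

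Of the 8 genes, 6 passed the filter on low counts (Tmprss2 and Steap4 did not), and 3 of these 6 passed the test: Steap1 was higher and Steap3 and Fkbp5 were lower in Bhlhe22 cells. Of all 14663 tested genes 2881 passed (19.6%), with 1520 higher (10.4%) and 1361 lower (9.28%), in edgeR's quasi-likelihood test with Benjamini-Hochberg adjustment at 0.05. None of the other tested genes of the 8 had an unadjusted edgeR p under 0.05. Bulk libraries cannot tell a change in RNA per cell from a change in the share of cells that carry it.

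**Figure D1:**
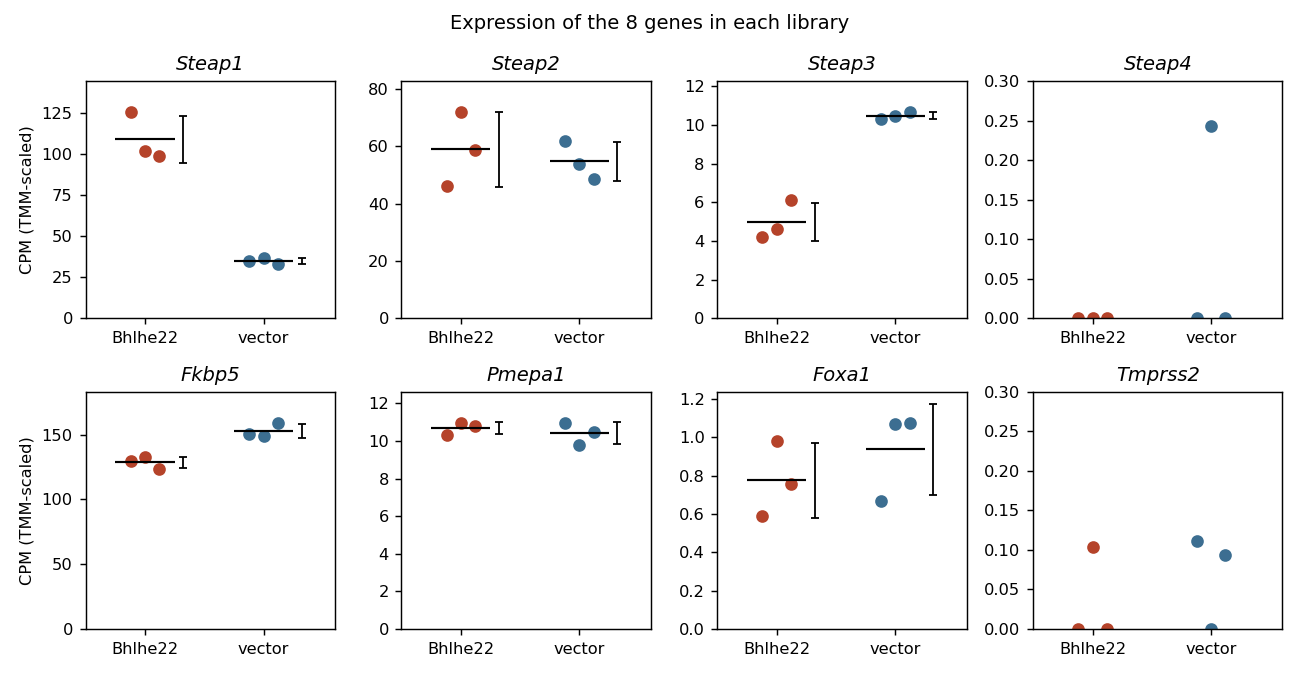
Level of each of the 8 genes in CPM in the 3 Bhlhe22 libraries (red) and the 3 vector libraries (blue), each panel with its own axis from 0. Points are replicates 1 to 3 from left to right, and lines and bars are the mean and SD where the gene passed the filter. The groups are apart for Steap1, Steap3 and Fkbp5, as they are for 40.8% of all tested genes.

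Stretches before a RefSeq start site of the 3 genes that passed the test are shown because they are where a basic helix-loop-helix factor would be looked for; such factors bind E-boxes, CANNTG. They are the 250 bases before the RefSeq start site on GRCm38.p6, written 5′ to 3′ along the gene, with each CANNTG in capitals. Steap1 lies at chr5:5749318-5749567, Steap3 (the most upstream of its 4 listed start sites) at chr1:120271081-120271330 and Fkbp5 at chr17:28486150-28486399, all on the minus strand. The Steap3 and Fkbp5 windows lie inside the gene spans of the deposited table, which begin further upstream.
Steap1: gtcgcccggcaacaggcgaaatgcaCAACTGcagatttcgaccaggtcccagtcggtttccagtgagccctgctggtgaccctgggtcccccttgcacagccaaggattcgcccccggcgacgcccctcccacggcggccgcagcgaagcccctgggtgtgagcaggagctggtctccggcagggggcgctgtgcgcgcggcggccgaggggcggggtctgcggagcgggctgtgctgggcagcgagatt
Steap3: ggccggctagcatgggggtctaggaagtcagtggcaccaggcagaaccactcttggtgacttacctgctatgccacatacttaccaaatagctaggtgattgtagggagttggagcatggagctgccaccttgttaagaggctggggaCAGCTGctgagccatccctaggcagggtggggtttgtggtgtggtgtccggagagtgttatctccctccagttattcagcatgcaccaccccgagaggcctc
Fkbp5: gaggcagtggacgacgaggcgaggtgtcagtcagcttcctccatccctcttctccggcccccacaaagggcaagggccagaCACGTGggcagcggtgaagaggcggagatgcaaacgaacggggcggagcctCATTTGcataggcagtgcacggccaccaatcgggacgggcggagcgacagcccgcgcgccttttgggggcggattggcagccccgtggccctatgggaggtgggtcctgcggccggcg

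Steap1 had 1 E-box, CAACTG, and the Steap3 window shown had 1, CAGCTG; of its other 3 windows the third held CACTTG, the fourth CAGCTG and the second none. Fkbp5 had CACGTG and CATTTG. An E-box of any kind stood in 66.2% of all 32851 RefSeq windows of this length, CAGCTG in 13.0% and CATATG in 3.46%, and CATATG was in none of the members' windows. RefSeq windows matched 7 of the 8 genes with 12 start sites in all; Pmepa1 was not among them. The 3 windows of Steap2 held no E-box and that of Tmprss2 none, while Foxa1 had CAGGTG and Steap4 had CATCTG and CAGCTG.

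The androgen response element and a forkhead motif were searched in the same windows on both strands. TGTTCT, the core of the androgen response element, was in 16.1% of all windows and in none of the members' windows. The full element, TGTTCT and its reverse complement 3 bases apart, was found in 3 windows of the whole set and in no member. The forkhead word TGTTTAC was in 3.17% of all windows, and matched once in Foxa1 and once in the second Steap3 window. These matches say which letters are there; no binding was measured.

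Steap1 (ENSMUSG00000015652, chr5:5736317-5749326, minus strand) was the STEAP gene that rose. It had 1908, 1972 and 2480 counts in Bhlhe22 replicates 1, 2 and 3, against 625, 751 and 705 in vector replicates 1, 2 and 3. These were 125, 102 and 98.8 CPM in Bhlhe22 cells and 34.6, 36.5 and 33.0 CPM in vector cells. Every Bhlhe22 library stood above every vector library, and Bhlhe22 replicate 1 was the highest. Groups that do not overlap, in either direction, were found for 40.8% of all tested genes. The rise was 3.13-fold (95% interval 2.61 to 3.75; log2 fold change 1.65, SE 0.11, edgeR adjusted p = 2.1e-04). It passed the test in each of the 6 fits without 1 library, with log2 fold changes of 1.52 to 1.71. Of the genes called higher in the whole table, 128 rose by at least as much as Steap1, itself included.

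Steap2 (ENSMUSG00000015653, chr5:5664829-5694578, minus strand) lies beside Steap1, with starts 54.7 kb apart, and did not pass the test. It had 46.0, 72.0 and 58.8 CPM in Bhlhe22 cells and 62.0, 53.7 and 48.5 CPM in vector cells, so the groups overlapped on both sides. Its log2 fold change was 0.11, with a 95% interval of -0.29 to 0.51 (edgeR adjusted p = 0.71). That interval runs from 0.816-fold to 1.42-fold and so does not reach the change of Steap1. Its direction rested on 1 library: without Bhlhe22 replicate 2 the log2 fold change was -0.06.

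Steap3 (ENSMUSG00000026389, chr1:120190757-120272705, minus strand) was the STEAP gene that fell. Its counts were low, 64, 89 and 153 in Bhlhe22 replicates 1, 2 and 3 against 186, 215 and 228 in vector replicates 1, 2 and 3. It had 4.21, 4.60 and 6.09 CPM in Bhlhe22 cells and 10.3, 10.4 and 10.7 CPM in vector cells. The vector libraries lay within a narrow band and all Bhlhe22 libraries below it, replicate 1 lowest. Such a separation of the groups, in either direction, was seen for 40.8% of all tested genes. The gene fell by 1.07 on the log2 scale (SE 0.16), or 2.09-fold lower with a 95% interval of 1.62 to 2.71 (edgeR adjusted p = 0.0043). In the fits without 1 library the adjusted p stayed between 0.0021 and 0.0265. Among all genes tested, 173 called lower fell by at least this much, Steap3 included.

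Steap4 (ENSMUSG00000012428, chr5:7960457-7982213, plus strand), a metalloreductase known from adipose tissue and inflammation, was at or near 0. It had 0 counts in all 3 Bhlhe22 libraries and 0, 5 and 0 counts in vector replicates 1, 2 and 3. One vector library alone was above the floor of 3 counts, and no fold is given.

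Steap1 held a larger share of the STEAP transcripts in each Bhlhe22 library than in any vector library. In deposited FPKM, a level per length, Steap1 made up 97.6%, 95.7% and 96.0% of the summed STEAP level in Bhlhe22 replicates 1, 2 and 3, against 87.3%, 88.5% and 88.3% in vector replicates 1, 2 and 3. The mean share was 8.41 percentage points higher, and the two-sided exact permutation p was 0.1, the smallest that 3 against 3 libraries can give. The shares draw on the same libraries as the Steap1 test and are no separate evidence. Steap2 held 2.80 ± 0.849% in Bhlhe22 cells and 7.26 ± 0.791% in vector cells. Its own FPKM averaged 1.72 ± 0.383 in Bhlhe22 cells and 1.62 ± 0.199 in vector cells, so its share shrank as the sum grew. Steap3 held 0.783 ± 0.232% in Bhlhe22 cells and 4.63 ± 0.295% in vector cells.

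The length behind these FPKM values sets the shares. In 97.5% of 10426 well-counted genes it was, within 0.1%, the sum of all distinct exons of GENCODE M21, overlapping ones counted repeatedly. For Steap2 this came to 33994 bases, longer than the gene's own span of 29750, while the union of its exons is 12144 bases. For Steap1 the sum was 1778 bases and the union 1377. With union lengths the Steap1 share was 93.1 ± 1.91% in Bhlhe22 cells and 79.8 ± 1.21% in vector cells, 13.3 points apart (exact permutation p = 0.1). On that scale the summed STEAP level was 94.1, 79.9 and 77.6 FPKM in Bhlhe22 cells and 32.2, 33.0 and 30.0 FPKM in vector cells. Counts alone, which carry no length, put Steap1 above Steap2 in each Bhlhe22 library (ratios of 2.73, 1.41 and 1.68) and below it in each vector library (0.559, 0.680 and 0.680). The mean log2 ratio differed by 1.55 (exact permutation p = 0.1).

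**Figure D2:**
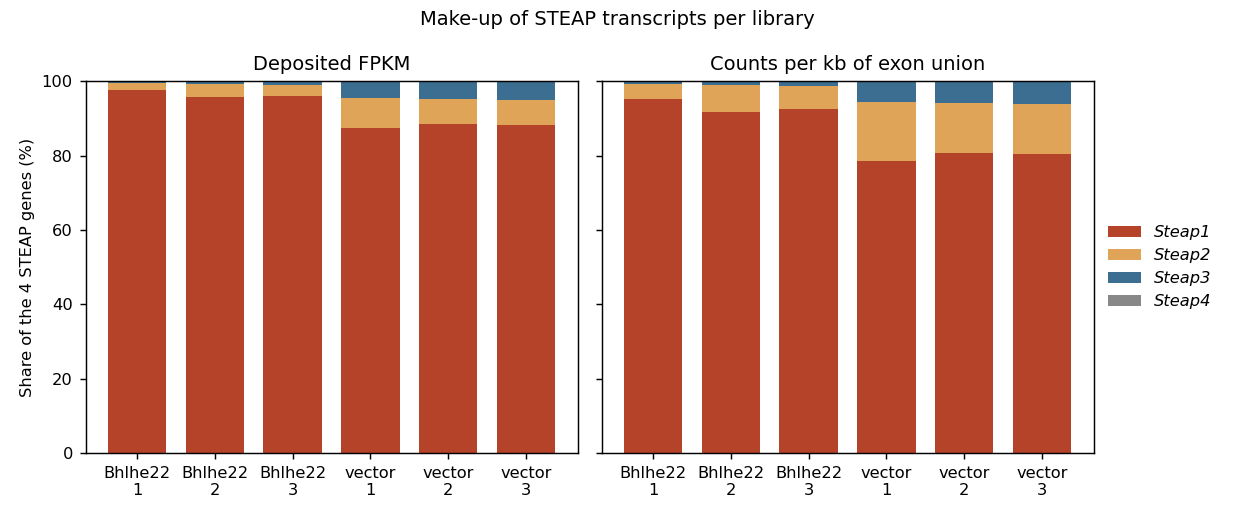
Share of Steap1 (red), Steap2 (orange), Steap3 (blue) and Steap4 (grey) in the summed level of the 4 genes, in percent, in each Bhlhe22 and each vector library, from deposited FPKM (left) and from counts per kb of exon union (right). Steap1 fills more of each Bhlhe22 bar than of any vector bar on both scales.

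Fkbp5 (ENSMUSG00000024222, chr17:28399094-28517527, minus strand) encodes an immunophilin that binds HSP90 and lowers hormone binding of the glucocorticoid receptor. It had 1970, 2564 and 3106 counts in Bhlhe22 replicates 1, 2 and 3, against 2715, 3070 and 3401 in vector replicates 1, 2 and 3. In CPM these were 129, 132 and 124 in Bhlhe22 cells and 150, 149 and 159 in vector cells. The groups did not overlap, as was so for 40.8% of all tested genes, and the gap between them was small. The gene fell by 0.25 on the log2 scale (SE 0.07), 1.19-fold lower with a 95% interval of 1.07 to 1.32 (edgeR adjusted p = 0.037). It passed the test without Bhlhe22 replicate 1 (adjusted p = 0.0091) and missed it without any one of the other 5 libraries (0.089 to 0.136) or without the filter on low counts (0.080). Among all genes tested, 19 were called lower with a change no larger than that of Fkbp5, and the median size of a called change was 0.57 on the log2 scale.

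Pmepa1 (ENSMUSG00000038400, chr2:173224458-173276533, minus strand) encodes a membrane protein that binds NEDD4-type ubiquitin ligases and dampens TGF-beta signalling. It had 10.3, 10.9 and 10.8 CPM in Bhlhe22 cells and 11.0, 9.81 and 10.5 CPM in vector cells. The groups overlapped almost fully. Its log2 fold change was 0.04 with a 95% interval of -0.20 to 0.27 (edgeR adjusted p = 0.84).

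Foxa1 (ENSMUSG00000035451, chr12:57540628-57546916, minus strand) was near the lower edge of detection. It had 9, 19 and 19 counts in Bhlhe22 replicates 1, 2 and 3, against 12, 22 and 23 in vector replicates 1, 2 and 3. The groups overlapped and averaged 0.776 ± 0.196 CPM in Bhlhe22 cells and 0.936 ± 0.235 CPM in vector cells. The log2 fold change of -0.27 had a 95% interval of -1.0 to 0.47 (edgeR adjusted p = 0.60). Tmprss2 (ENSMUSG00000000385, chr16:97564682-97611195, minus strand), a surface serine protease gene, had 0, 2 and 0 counts in Bhlhe22 cells and 2, 0 and 2 in vector cells. All 6 values were under the floor of 3 counts. In GENCODE M21 no exon of the 8 genes overlapped an exon of another gene, on either strand.

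**Figure D3:**
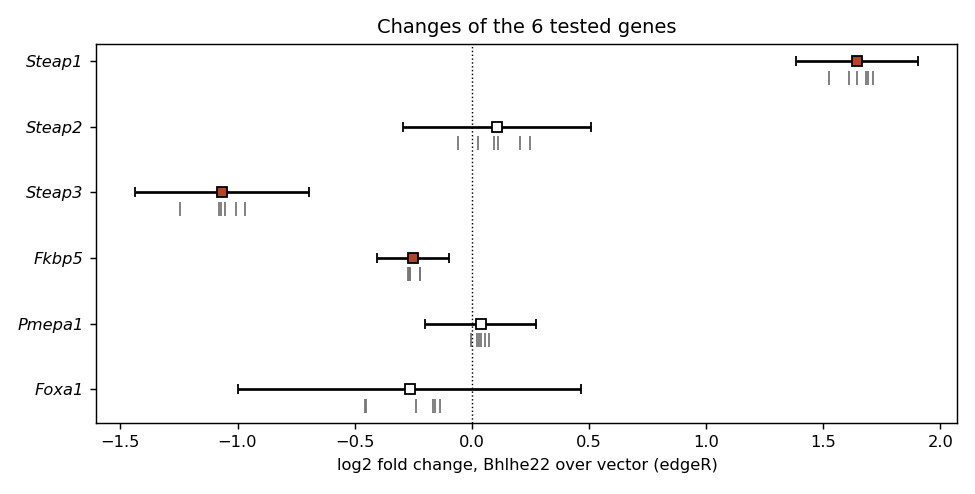
Log2 fold change, Bhlhe22 over vector, of the 6 genes that passed the filter, with 95% intervals from edgeR; filled squares passed the adjusted threshold of 0.05. Small ticks under each gene are the 6 fits that each left out 1 library; they cross 0 for Steap2 and Pmepa1.

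Genes around the chromosome 5 STEAP cluster were compared to see whether Steap1 moved with its neighbourhood. The stretch from Steap2 to Steap4 spans 2317 kb and holds 23 other genes of the table, of which 2 passed the filter. On the Steap2 side none of the 5 nearest tested genes was called: Mterf1b (0.06), Cdk14 (0.22), Cldn12 (-0.68), Gm8773 (-0.59) and Cfap69 (0.08), all as log2 fold changes. Cfap69 is the nearest tested gene past Steap2, and its 95% interval ran from -0.31 to 0.47. On the Steap4 side Slc25a40 (0.58) and Rundc3b (0.92) were higher, Dbf4 (-0.31) was lower, and Gm15731 (0.16) and Sri (0.24) were not called. Their starts lay much further off, 2297 kb (Sri) to 2874 kb (Rundc3b) from the Steap1 start. The 2 tested genes inside the stretch are processed pseudogenes, Gm15459 (-1.03) and Tubb4b-ps1 (-1.17). Both were lower, and reads of their parent genes may be counted there, which was not tested. Gm15459 starts 34.2 kb from the Steap1 start, nearer than Steap2. Gm26825, on the opposite strand, covers 95.8% of the Gm15459 exons, and the sources do not state whether counting used strand.

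In all 5 of 12 neighbours passed the edgeR test, 2 higher and 3 lower, beside 19.6% of all tested genes. Without any one library other than Bhlhe22 replicate 1 the count was 3, and without that library it was 6. Rundc3b lost its call in each of the 6 fits, and Cldn12 gained one without Bhlhe22 replicate 1 (-1.16). Dbf4 kept its call in 1 of the 6 fits, the one without Bhlhe22 replicate 1, where Cdk14 also passed (0.29). No neighbour had a log2 fold change as large in size as that of Steap1, whose interval began at 1.39. The interval of Rundc3b reached up to 1.53, and those of Gm8773, Tubb4b-ps1 and Cldn12 reached down to -1.50, -1.42 and -1.39.

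**Figure D4:**
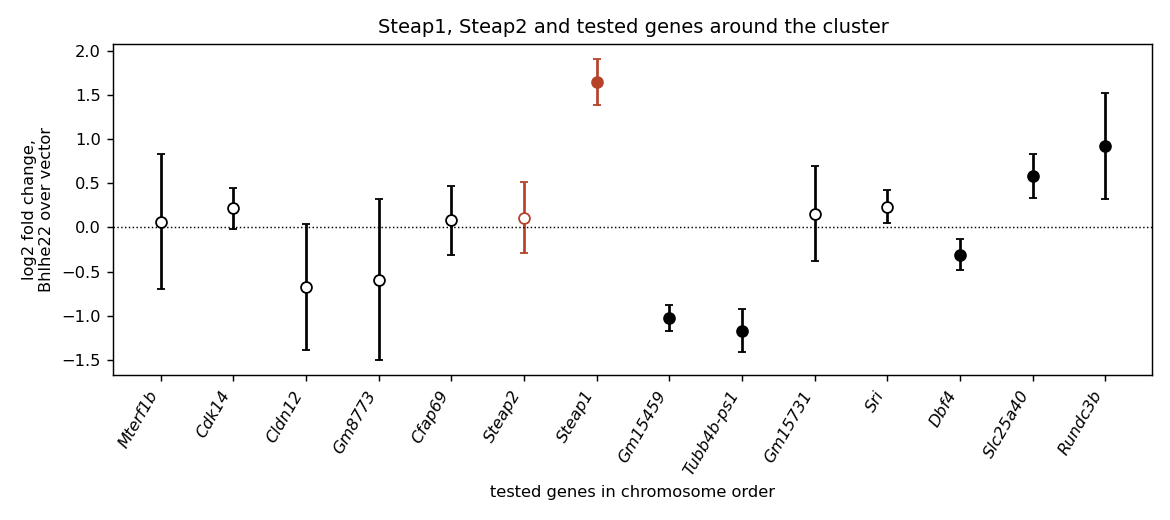
Log2 fold change, Bhlhe22 over vector, with 95% edgeR intervals, of Steap1 and Steap2 (red) and the 12 tested genes around the cluster (black) in chromosome order, evenly spaced and not to distance. Filled points passed the adjusted threshold of 0.05; Steap1 stands above all others.

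Genes whose profile over the 6 libraries was most like that of each called gene were found by the root mean square difference of centred log2 CPM. For Steap1 these were Pla2g12a (0.060), Gnpnat1 (0.089) and Osbpl2 (0.10), with log2 fold changes of 1.66, 1.65 and 1.63; most of the Gnpnat1 exon sequence is also covered by Styx, on the opposite strand. For Steap3 they were Fancd2 (0.055), Rtkn2 (0.060) and Sbk1 (0.071), with log2 fold changes of -1.05, -1.0 and -0.98. Fancd2 acts in DNA crosslink repair. For Fkbp5 they included Eif3b (0.019) and Bms1 (0.023), which act in translation initiation and ribosome assembly. Eif3b itself missed the edgeR threshold (adjusted p = 0.053).

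The wider list of androgen-responsive and luminal genes moved in both directions. Of 49 genes 34 were tested, 5 were higher and 8 lower, and the median log2 fold change was -0.02, beside 0.01 over all tested genes. That was 38.2% called, Steap1 and Fkbp5 included, beside 19.6% of all tested genes. Ndrg1, a stress- and androgen-responsive gene, averaged 546 ± 12.2 CPM in Bhlhe22 cells and 238 ± 10.4 CPM in vector cells (log2 fold change 1.2). The exporter gene Abcc4 was also higher (0.84). The surface antigen gene Cd24a averaged 5.19 ± 0.333 CPM in Bhlhe22 cells and 11.1 ± 0.553 CPM in vector cells, and fell by 1.10. Without any one library other than Bhlhe22 replicate 1, 7 or 8 genes of the list were called, and 16 without that library. Genes on the opposite strand cover 8.43% of the Ndrg1 exons, and the sources do not state whether counting used strand.

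Steroid receptors and their cofactors were called about as often as all tested genes (19.6%). Of 26 genes for steroid receptors and androgen handling 10 were tested, 1 was higher and 1 lower (20.0%, median 0.06). Nr3c1, the glucocorticoid receptor gene, rose to 99.6 ± 14.0 CPM in Bhlhe22 cells, against 63.4 ± 3.57 CPM in vector cells (log2 fold change 0.65, edgeR adjusted p = 0.0085). Srd5a1, which encodes a steroid reductase that makes dihydrotestosterone, fell by 0.50 and lost its call without any one vector library; the list then had 1 to 2 calls, and 4 without Bhlhe22 replicate 1. Of 31 coregulators and cooperating factors 27 were tested, 2 were higher and 4 lower (22.2%, median -0.11). Ccnd1 (-0.62), Grhl2 (-0.66), Smarca4 (-0.45) and Foxa2 (-0.80) were the lower ones. Foxa2, a paralog of Foxa1, averaged 6.30 ± 0.625 CPM in Bhlhe22 cells and 11.0 ± 2.52 CPM in vector cells. Smarca4 lost its call without vector replicate 2 or vector replicate 3. The call of Foxa2 was lost without Bhlhe22 replicate 2, vector replicate 1 or vector replicate 3, and the list had 3 calls without Bhlhe22 replicate 2, vector replicate 1 or vector replicate 2, and 2 without vector replicate 3. An antisense neighbour covers 23.4% of the Ccnd1 exons, and a gene on the same strand covers 16.4% of the Srd5a1 exons.

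A list of HSP90-related chaperones and immunophilins held Fkbp5 and much of the wider FKBP family, not only chaperones of steroid receptors. All 31 genes of the list were tested, 0 were higher and 6 lower, with a median of -0.04. The 19.4% called stood beside 19.6% of all tested genes called in either direction. Since all 6 calls were lower, the like share is the 9.28% of all tested genes called lower, beside 10.4% called higher. Hspa8, the constitutive HSP70 gene, averaged 418 ± 49.1 CPM in Bhlhe22 cells and 808 ± 6.50 CPM in vector cells, and fell by 0.95. Hsp90aa1 fell by 0.41, Ppp5c, a receptor-bound phosphatase gene, by 0.32 and Hsp90ab1 by 0.24. The count depended on single libraries: it was 13 without Bhlhe22 replicate 1 and 1 or 2 without any other, and of the 4 named here Hspa8 was called in all 6 of these fits. DESeq2 called 10 of the list, and the fit with no filter 3.

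Of 26 glucocorticoid-induced genes, a list that also holds Fkbp5, 21 were tested, 5 were higher and 6 lower (52.4%, beside 19.6% of all tested genes; median 0.22). Lcn2, the gene of a secreted siderophore-binding protein, averaged 11.8 ± 0.873 CPM in Bhlhe22 cells and 1.78 ± 0.196 CPM in vector cells (log2 fold change 2.73). The clock gene Per2 rose by 1.26. Mt1, a metallothionein gene, fell by 0.76 and the NF-kB inhibitor gene Nfkbia by 0.42. The count was 6 to 8 without any one library other than Bhlhe22 replicate 1, and 13 without that library.

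Iron and copper genes, the setting of STEAP function, gave 7 higher and 4 lower among 32 tested of 43 (34.4%, beside 19.6% of all tested genes; median 0.10), Steap1 and Steap3 included. Tfrc, the transferrin receptor gene whose endosomes STEAP3 serves, averaged 41.1 ± 3.91 CPM in Bhlhe22 cells and 96.1 ± 2.22 CPM in vector cells, and fell by 1.23. Slc39a14, which encodes an importer of zinc and non-transferrin iron, rose to 313 ± 37.7 CPM in Bhlhe22 cells, against 149 ± 18.6 CPM in vector cells (log2 fold change 1.07). The mitochondrial iron importer gene Slc25a37 was higher (0.49), and Aco1, the gene of iron regulatory protein IRP1, was lower (-0.50). Cybrd1, another ferric reductase gene, was not tested, and Slc11a2, the endosomal iron transporter gene, had a log2 fold change of 0.10 that missed the threshold. Without vector replicate 1 or vector replicate 2 the list had 7 calls.

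Of 24 genes for type II transmembrane serine proteases, the family of Tmprss2, with their inhibitors and some substrates and receptors, 6 were tested, 0 were higher and 2 lower (33.3%, beside 19.6% of all tested genes; median -0.32). Tmprss11f averaged 0.564 ± 0.150 CPM in Bhlhe22 cells and 2.77 ± 0.683 CPM in vector cells, and fell by 2.25. F2rl1, which is no protease but a G protein-coupled receptor gene whose product proteases activate, fell by 0.40. The list had 1 call without Bhlhe22 replicate 2, vector replicate 1 or vector replicate 2, where F2rl1 missed the threshold, and 3 without Bhlhe22 replicate 3.

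Around Pmepa1, 27 of 28 listed TGF-beta feedback symbols were tested, 3 were higher and 4 lower (25.9%, beside 19.6% of all tested genes; median -0.10). Ccn2, a classic TGF-beta and YAP target gene, averaged 40.5 ± 2.13 CPM in Bhlhe22 cells and 90.4 ± 1.63 CPM in vector cells, and fell by 1.16. Of the inhibitory SMAD genes Smad6 was lower (-0.76) and Smad7 higher (0.36), and Tgfb3 was lower (-0.37). Smad7 kept its call in 1 of the 6 fits without 1 library (edgeR adjusted p up to 0.108) and Tgfb3 in 2 (up to 0.104). Ccn2 and Tgfb3 share 23.2% and 12.4% of their exon length with genes on the other strand. The list had 10 calls without Bhlhe22 replicate 1 and 2 or 3 without any other library; Ccn2 and Smad6 were called in all 6 of these fits.

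Basal genes were set beside the luminal ones. Of 16 genes 8 were tested, 2 were higher and 0 lower (25%, beside 19.6% of all tested genes; median 0.33). Of these, the laminin gene Lamb3 (0.51) lost its call in each fit without 1 library. The list had 4 calls without Bhlhe22 replicate 1, 1 without Bhlhe22 replicate 2 or 3 and 0 without any vector library. The defining basal genes Krt5 and Trp63 had at most 2 counts in a library.

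**Figure D5:**
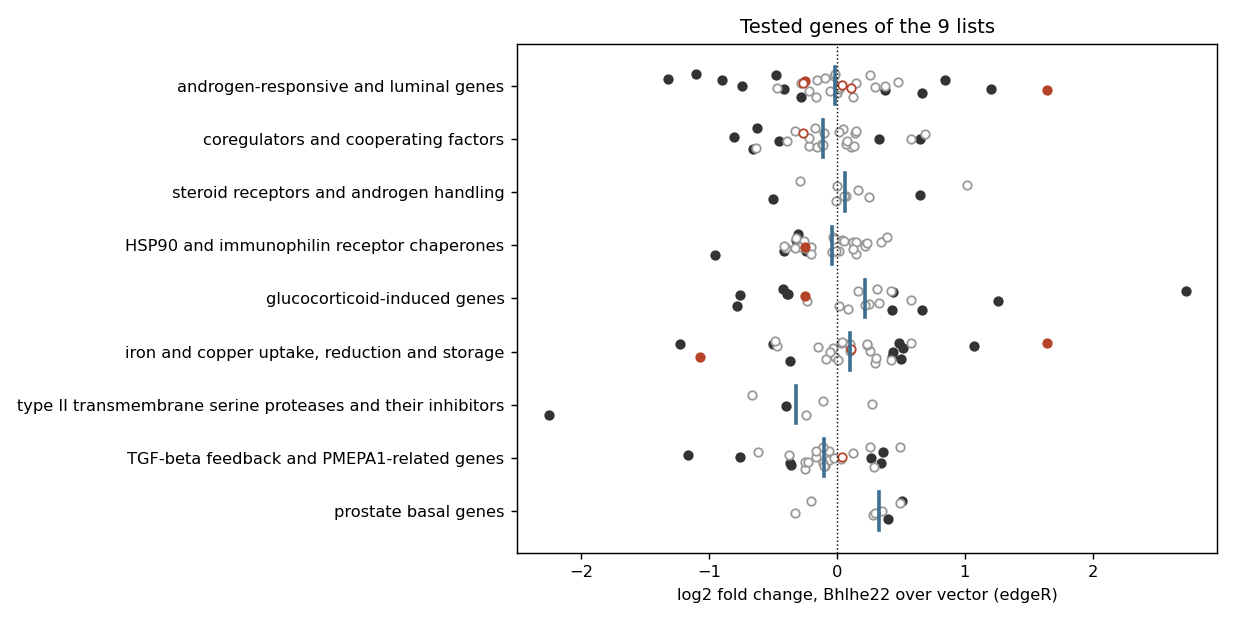
Log2 fold change, Bhlhe22 over vector, of each tested gene of the 9 lists, 1 point per gene, with the list median as a blue bar. Filled points passed the adjusted threshold of 0.05 and red marks genes of the 8 described here; each list except the chaperones, proteases and basal genes has filled points on both sides of 0.

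Markers of other cell types were read beside these results. Among 10 epithelial markers 3 were tested; Krt19 was higher and Ocln lower, and Cdh1 had at most 6 counts. All 10 mesenchymal markers were tested, 2 higher and 2 lower, with summed levels of 2541 to 2712 CPM in Bhlhe22 libraries and 2868 to 3031 CPM in vector libraries. The leukocyte markers Adgre1, Itgam, Cd3e and Lyz2 had 0 counts in every library, while Cd68, the 1 of 8 markers tested, averaged 49.2 CPM in Bhlhe22 cells and 40.9 CPM in vector cells and was not called. The summed leukocyte level was 44.0 to 52.4 CPM in Bhlhe22 libraries and 38.0 to 42.9 CPM in vector libraries. Of 8 neuroendocrine markers 4 were tested and 2 were higher, with summed levels of 53.5 to 87.7 CPM in Bhlhe22 libraries and 43.5 to 56.4 CPM in vector libraries; their part in the results above was not tested. Of 6 basal markers 1 was tested, of 5 endothelial markers 3 and of 4 erythroid markers 0, and none of these was called.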

How the data were processed

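RNA from 3 Bhlhe22 and 3 vector libraries of RM-1 cells was measured by RNA-seq. Raw counts and FPKM for each gene were deposited by the authors in one table, per the file headers. The submitters' processing notes name edgeR, StringTie 1.3.4b, HISAT2 2.1.0, CASAVA 1.8 and the build GRCm38, without roles. Annotation release, filters and strandedness were not given in the sources used here. Counts were fitted over the whole table with edgeR 4.0.16 in R 4.3.3 (TMM, filterByExpr with minimum count 10 and total 15, robust quasi-likelihood, Benjamini-Hochberg at 0.05), after a check on simulated data. STEAP shares used the exact permutation test. Strands, exons and lengths came from GENCODE M21, and promoters from RefSeq; likeness used log2 CPM with 0.25 added. Tables and plots used Python 3.11.15 with pandas 2.3.3, scipy 1.17.1 and matplotlib 3.10.9.

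The 8 genes, the 9 lists and the markers were chosen with earlier results of these data known. Named genes are the 8, up to 4 called genes of each list with the smallest adjusted p, the cluster's neighbours, the 3 most like each called gene, and markers; some genes that this rule names are not reported here. Alternatives were DESeq2 1.42.0, RLE scaling, no filter, a replicate block, limma 3.58.1 on log2(FPKM + 1) and leaving out each library; 2 other lengths for the shares were added after seeing the data.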

Additional observations from a re-analysis of the deposited data

How the results depend on the processing

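Steap1 and Steap3 kept their direction and their call under every alternative run, with log2 fold changes of 1.52 to 1.71 for Steap1; on the log2(FPKM + 1) scale, where the pseudocount shrinks low genes, Steap3 fell by 0.46. Of the 8 genes 2 to 3 were called under all alternatives, Fkbp5 being the one lost. Same-numbered libraries did not deviate together (correlations of 0.029, 0.021 and 0.016), so the replicate numbers were not taken as pairs. With the replicate block 2079 genes were called and Fkbp5 had an edgeR adjusted p of 0.102. The share difference of Steap1 stayed 8.41 points. Its exact permutation p was 0.25, the smallest that 3 blocks of 2 libraries can give. The block called 8 androgen and luminal genes, 1 chaperone gene, 2 TGF-beta genes, 0 basal genes and 3 cluster neighbours. Without the filter 3 chaperone genes and 3 neighbours were called. DESeq2 called 10 chaperone genes and 1 basal gene, and limma on FPKM 1 basal gene.

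Leaving out 1 library gave 1348 to 4682 calls in the whole table, 7 to 16 in the androgen and luminal list, 2 to 8 coregulators, 1 to 4 steroid genes, 1 to 13 chaperones, 6 to 13 glucocorticoid-induced genes, 7 to 13 iron and copper genes, 1 to 3 proteases, 2 to 10 TGF-beta genes, 0 to 4 basal genes and 3 to 6 neighbours. The share difference was 7.84 to 8.76 points. Signs turned for genes that were not called: Pmepa1 ran from -0.0045 (without vector replicate 2) to 0.074, Steap2 from -0.058 (without Bhlhe22 replicate 2) to 0.25 and Cfap69 from -0.0020 (without Bhlhe22 replicate 1) to 0.20. Mterf1b was -0.20, -1.5e-04 and -0.047 without Bhlhe22 replicate 1, vector replicate 2 and vector replicate 3, and at most 0.31. The cause of these shifts was not tested. Low counts limit Foxa1, Tmprss2 and Steap4, for which these libraries could not show a moderate change.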
